A study of Rattus norvegicus with 6 samples.

Results

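The 62 predicted miRNAs described here took a far larger share of the reads in the vesicles of nerve fibroblasts than inside the cells. They are 62 of the 519 predicted miRNAs, and of the 1071 miRNAs in all, in a count table of small RNA from rat sciatic nerve fibroblasts. A predicted miRNA is one that a program proposes from reads outside the known miRNAs, and its name here is a running number with the arm of the hairpin (mature or star). A member was taken if it had at least 5 counts summed over the 3 libraries of extracellular vesicles (EV) and a pooled EV level at least 10 times the pooled level inside the cells. Levels are in CPM, counts per 1000000 counts of the library, and pooled means summed counts over summed totals. These values chose the members, so the contrast between EV and cells is described and not tested.

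The fibroblasts were wild type and untreated, from rat sciatic nerve, and all 6 samples carry the same batch label. The EV group is 3 libraries of RNA from the vesicles, which the labels call exosomes, and the Intracellular group is 3 libraries of RNA from inside the cells, the controls. The labels do not say whether replicates were separate cultures or animals, nor how the vesicles were purified, so the spread between libraries may be technical. In bulk libraries, fewer cells with an RNA and less of it per cell cannot be told apart.

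EV totals were 81211 to 105578 counts and Intracellular totals 1839047 to 8859302, so that 1 count stood for 9.47 to 12.3 CPM in EV and 0.113 to 0.544 CPM in cells. The 7 fibroblast and mesenchymal markers summed to between 435952 and 495643 CPM in every library. Among markers of other cell types, liver (miR-122-5p) summed to 11158 to 13723 CPM in EV and 117.7 to 344.7 CPM in cells, and the 2 erythroid markers to 151.5 to 221.6 and 2.03 to 5.98 CPM. The 3 muscle markers summed to 49.3 to 151.5 CPM in EV and 9.06 to 12.6 CPM in cells. All 5 epithelial markers were at 0 in EV, and they summed to 1.09 to 1.92 CPM in cells. Also at 0 in EV were miR-142-5p and miR-223-3p of the 5 leukocyte markers and miR-219a-5p of the 2 Schwann cell markers. The highest pooled Intracellular level among these markers was 0.999 CPM, for miR-142-5p. Such a level lies below 1 count in any EV library, so absence from EV is not shown. The leukocyte list summed to 216.6 to 265.2 CPM in EV and 63.6 to 169.9 in cells, the 2 endothelial markers to 259.9 to 435.7 and 141.4 to 390.3, the neuronal list (2 of 3 with a row, without miR-124-3p) to 1096 to 1343 and 679.2 to 2055, and the Schwann cell markers to 0 to 47.4 and 8.16 to 20.1. The part of other cell types in the levels of the predicted miRNAs was not tested.

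A miRNA is cut from a hairpin precursor, first in the nucleus by Drosha and then in the cytoplasm by Dicer. One arm is usually kept in an Argonaute protein and the other, the star, is mostly degraded. Bases 2 to 8 of the kept arm, the seed, pair with target mRNAs, so miRNAs with one seed can share targets. Vesicles released by cells carry miRNAs together with fragments of other small RNAs, and a program that predicts miRNAs looks for reads stacked on a sequence that folds into a hairpin. Reads from both arms are commonly asked for as evidence of a precursor.

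Deposited sequences were at hand for 7 of the 62 members. These 7 had 6 to 18 EV counts each, and none of the 10 members with at least 50 EV counts is among them. The sequences are shown because they are the only direct view of what these 7 molecules are, 5′ to 3′ in DNA letters with the seed in capitals.
novel324_mature: tCCCCTGGgtctgtgctctgca
novel119_mature: tTTCCTCTctgccccatagggtgt
novel335_mature: tGGAACTCctctggatgcaaggc
novel389_mature: aTGGATGCctccttcctgtgg
novel487_mature: tGTCTAGGccagtatacacttg
novel333_mature: cTCCAGGAacggtgctct
novel483_mature: cATCTGGAtagtgacttt

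The 7 differ in seed from each other and from every other predicted miRNA with a sequence. Lengths ran from 18 to 24 bases, and 5 of 7 (71.4%) lay between 20 and 24 bases, against 66.0% of 100 other predicted miRNAs and 96.9% of 552 known ones. Their median GC content of 56.5% (38.9% to 63.6%) lay near the 57.9% of other predicted miRNAs and above the 47.8% of known ones. The first base was T in 4 of 7, 34.0% of other predicted and 38.8% of known miRNAs. None of the 7 is contained, on either strand, in a RefSeq hairpin or mature miRNA of the rat (GRCr8). With 7 sequences these shares are a description and are not compared by a test. The files give no positions for these molecules, and none is printed here.

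Of the 7, 2 carry the seed of a known rat miRNA, as do 9 of the 100 other predicted miRNAs. The RefSeq sequences (GRCr8) of those 2 known miRNAs are set out in the same way for comparison.
rno-miR-331-3p: gCCCCTGGgcctatcctagaa
rno-miR-185-3p: tTTCCTCTggtccttctct

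The seed of novel324_mature is that of miR-331-3p, yet the counts of the 2 lay in opposite fractions. In EV replicates 1, 2 and 3, novel324_mature had 3, 12 and 3 counts and miR-331-3p had 0, 0 and 0. In Intracellular replicates 1, 2 and 3, novel324_mature had 0, 0 and 0 counts and miR-331-3p had 8, 33 and 59, or 4.35, 9.96 and 6.66 CPM. At its pooled Intracellular level, miR-331-3p would be expected at 1.99 counts over the 3 EV libraries together, so a lower level in EV was not detectable at this depth. novel119_mature, with the seed of miR-185-3p, had 1, 7 and 2 EV counts and 1 Intracellular count, in replicate 3, and miR-185-3p has no row of its own in the table.

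The longest run of bases that novel324_mature shares with a known miRNA of the table is 11 bases long and lies in miR-760-3p, here in capitals, and it covers part of the seed of novel324_mature but starts at base 6 of miR-760-3p.
novel324_mature: tcccCTGGGTCTGTGctctgca
rno-miR-760-3p: cggctCTGGGTCTGTGggga

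miR-760-3p itself passes the same limits on counts and fold, with 7, 14 and 4 EV counts and 11, 19 and 25 Intracellular counts, a pooled fold of 22.8. novel119_mature shares 11 bases with miR-328a-3p, and the longest shared run of the other 5 was 7 to 9 bases. Over the 100 other predicted miRNAs the longest run shared with a known one had a median of 8 bases and reached 19, and it was 11 bases or more for 8 of the 100. The remaining 5 members with sequences were low: novel335_mature had 3, 3 and 3 EV counts, novel389_mature 2, 6 and 1, novel487_mature 1, 7 and 0, novel333_mature 2, 2 and 2, and novel483_mature 1, 2 and 3. All 5 had 0 Intracellular counts except novel333_mature, with 1 in replicate 2.

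The values that chose the members are given here once. Of 75 predicted miRNAs with at least 5 EV counts, 62 passed the 10-fold limit and 13 did not, against 13 of 280 known miRNAs (4.64%) and 21.1% of all miRNAs with that many counts. The member with the smallest fold was novel103_mature>novel504_mature, a row of reads shared by 2 predictions, at 17.3-fold (95% interval 7.53 to 36.5, exact binomial, counting error only). It had 3, 4 and 3 EV counts and 1, 4 and 24 Intracellular counts. Next came novel401_mature, with 1, 2 and 4 EV counts and 1, 4 and 14 Intracellular counts, and novel509_mature, with 4, 5 and 2 EV counts and 1, 6 and 12 Intracellular counts. On the other side of the limit, novel138_mature reached 4.74-fold (2.70 to 7.81), novel156_mature 3.62-fold and novel95_mature 1.74-fold. No predicted miRNA with at least 5 EV counts had a pooled fold between 4.74 and 17.3, though the counting intervals of the 2 nearest overlapped. On the count limit, 8 members had exactly 5 EV counts, and 10 further predicted miRNAs with 4 EV counts met the fold.

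**Figure D1:**
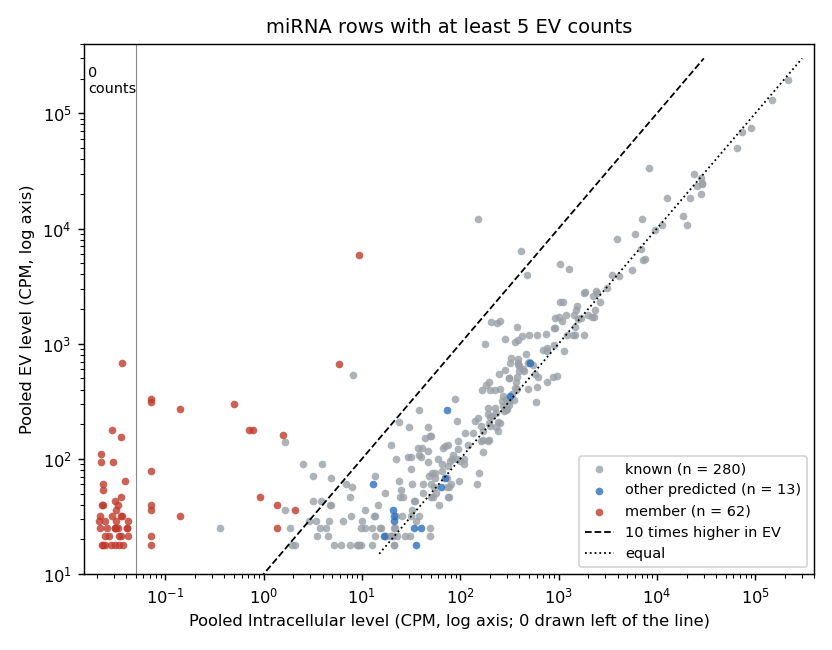
Pooled EV level against pooled Intracellular level (CPM, log axes) of every miRNA with at least 5 EV counts, with members in red, the 13 other predicted miRNAs in blue and known miRNAs in grey, and with rows at 0 Intracellular counts drawn left of the vertical line. The 62 members lie above the dashed 10-fold line and 43 of them have 0 Intracellular counts. The other predicted miRNAs lie below that line, from under the dotted line of equal levels up to 4.74-fold.

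Most members were not seen in the cells at all. Of the 62, 43 had 0 counts over the 3 Intracellular libraries, 9 had 1 to 3 and 10 had more than 3. A count of 0 in the pooled Intracellular total of 14011424 was taken to allow up to 3 counts, or 0.214 CPM. Over that limit, the observed pooled EV levels of the 43 ran from 83.7-fold for those with 5 EV counts to 3163-fold for novel122_mature with 189. These ratios leave out the counting error of the EV counts, so they are not lower limits of the fold. Of the 43, 27 were counted in all 3 EV libraries.

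Most members were also low in EV, with a median of 9 EV counts. In all, 32 had 5 to 9, 20 had 10 to 49 and 10 had at least 50. Counts were found in all 3 EV libraries for 45 members, in 2 libraries for 17 and in 1 library alone for none. Without EV replicates 1, 2 and 3, however, 12, 32 and 11 members no longer met the limits. EV lay above every Intracellular library in CPM for the 45 members counted in all 3 EV libraries. The 17 others overlapped at a 0 in an EV library. Among all miRNAs with at least 5 EV counts, 45.1% did not overlap in this way. The contrast is the one that chose the members, and nothing is read from that count.

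One member outweighed the others. novel540_mature had 485, 849 and 321 counts in EV replicates 1, 2 and 3 and 8, 48 and 76 in Intracellular replicates 1, 2 and 3. This is 5972, 8041 and 3477 CPM in EV and 4.35, 14.5 and 8.58 CPM in cells, or 5830 ± 2286 against 9.14 ± 5.09 CPM (SD, n = 3). Its lowest EV library was far above its highest Intracellular one, with a pooled fold of 629.4 (95% interval 526.9 to 757.3, counting error only). It ranked 25, 22 and 32 among all miRNAs of EV replicates 1, 2 and 3, and the next best rank of a member in any EV library was 52.

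Next by EV counts was novel122_mature, most of it from 1 library. It had 6, 177 and 6 counts in EV replicates 1, 2 and 3, or 73.9, 1676 and 65.0 CPM, and 0 in the cells. EV replicate 2 thus held 92.4% of its summed EV CPM. Without that library it would still have 12 EV counts. novel199_mature followed with 47, 94 and 44 EV counts, or 578.7, 890.3 and 476.6 CPM. It was also among the members best counted in the cells, with 21, 24 and 37 counts, or 11.4, 7.24 and 4.18 CPM, a pooled fold of 113.3 (86.9 to 148.7).

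Several well counted members had almost none in the cells. novel165_mature had 13, 68 and 12 EV counts, novel341_mature 32, 35 and 20, and each had 1 Intracellular count, in replicate 3. Their pooled folds were 4668 (95% interval 817.5 to 186354) and 4367 (763.5 to 174457), intervals that 1 count leaves wide. novel80_mature had 18, 47 and 10 EV counts against 2 in Intracellular replicate 3, and novel250_mature 7, 14 and 1 against 1 in Intracellular replicate 2. Within this set novel341_mature was the least uneven over the EV libraries, at 394.0, 331.5 and 216.6 CPM, and the other 3 were highest in EV replicate 2.

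Of the named members with 0 Intracellular counts, novel236_mature had 11, 29 and 10 counts in EV replicates 1, 2 and 3, and novel419_mature had 11, 27 and 5. Lower in the list, novel109_mature had 6, 21 and 4, novel305_mature 4, 19 and 3, novel49_mature 7, 13 and 6, and novel399_mature 3, 9 and 3. novel252_mature had 7, 10 and 0, and so was missing from EV replicate 3. Each of these 7 was highest in EV replicate 2.

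Some other members with more than 3 Intracellular counts show how levels varied in the cells. novel118_mature had 51, 18 and 15 EV counts, highest in replicate 1, against 1, 0 and 6 in the cells. novel143_mature>novel334_mature, again reads shared by 2 predictions, had 18, 23 and 9 against 0, 3 and 7. novel451_mature had 18, 26 and 6 against 5, 5 and 1, so that its level in the cells ran from 0.113 CPM in replicate 3 to 2.72 CPM in replicate 1. novel214_mature had 3, 9 and 1 against 0, 7 and 6. In contrast novel543_mature was even in the cells, at 1.63, 1.51 and 1.58 CPM, while its EV counts of 4, 3 and 38 lay mostly in replicate 3.

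**Figure D2:**
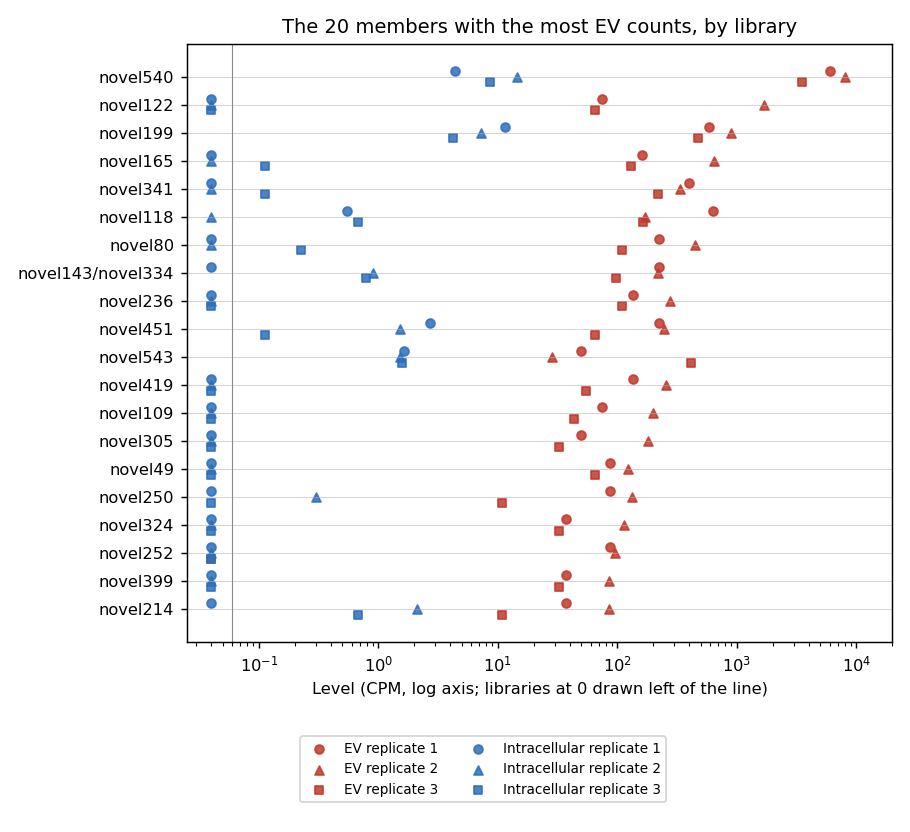
Level of the 20 members with the most EV counts in each of the 6 libraries (CPM, log axis), with EV libraries in red and Intracellular ones in blue, a symbol for each replicate and libraries at 0 drawn left of the vertical line. Every EV value above 0 lies to the right of every Intracellular value of the same member, and EV replicate 2 (triangles) is often the highest.

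Between Intracellular libraries, 9 members had at least 10 counts in all. Chi-square per degree of freedom measures how far the counts of 3 libraries spread around 1 common CPM, and counting noise alone gives 1 on average. Its median was 2.50 for these 9 and 1.16 for 144 known miRNAs with Intracellular counts in the same range. It was largest for novel451_mature (8.04), novel199_mature (7.54) and novel540_mature (7.36).

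Summed over the 62 members, the share of library counts was 1.02%, 1.60% and 0.629% in EV replicates 1, 2 and 3, or 1.08% ± 0.487 (SD, n = 3). In Intracellular replicates 1, 2 and 3 it was 0.00228%, 0.00332% and 0.00229%. novel540_mature made up 58.3%, 50.3% and 55.2% of the members' EV counts. Without it the share was 0.427%, 0.794% and 0.282%, with the EV libraries in the same order. Members held 79.8%, 83.4% and 71.0% of all predicted-miRNA counts in EV replicates 1, 2 and 3, and 2.30%, 1.93% and 1.47% of those in the cells. The 457 other predicted miRNAs took 0.260%, 0.317% and 0.257% of EV counts and 0.0970%, 0.168% and 0.154% of Intracellular counts, so their EV libraries differed less from each other.

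**Figure D3:**
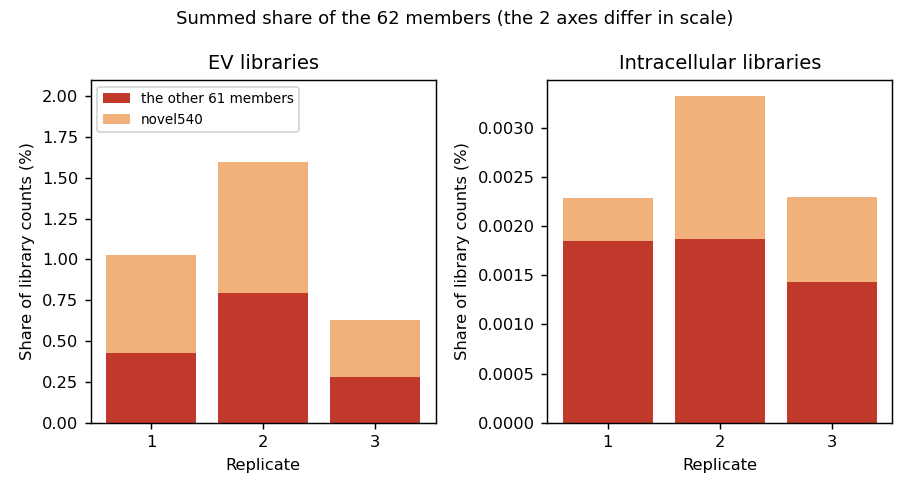
Summed share of library counts of the 62 members (percent), split into novel540_mature and the other 61 members, for each EV library (left) and each Intracellular library (right, on its own smaller scale). EV replicate 2 holds the most (1.60%) and EV replicate 3 the least (0.629%), and the same order holds without novel540_mature.

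The rule used the sum of the EV counts and not how it divides over the 3 libraries, but members near the limit of 5 counts could reach it through 1 library. Of the 62 members, 43 (69.4%) had their highest CPM in EV replicate 2, 14 in replicate 1 and 5 in replicate 3. Of 256 known miRNAs with EV counts in the same range, 86 (33.6%) were highest in EV replicate 2, 99 in replicate 1 and 71 in replicate 3. Among the 13 other predicted miRNAs with at least 5 EV counts, 6 were highest in replicate 2. For members with at least 15 EV counts, 15 of 19 were highest in EV replicate 2, and the median ratio of EV replicate 2 to the mean of replicates 1 and 3 was 2.25. The same ratio was 0.999 over 186 known miRNAs with at least 15 counts. Since 32 of the 62 members reach the limits only with EV replicate 2, the count of 43 is partly set by the rule. Among the 30 members found without EV replicate 2, a check added after the values were seen, 18 were highest in that library, against 66 of 223 known miRNAs with at least 5 counts in EV replicates 1 and 3. These are counts within 1 group of 3 libraries and carry no test, and EV replicate 2 was also the deepest EV library. Of the marker lists, the muscle (28 EV counts), leukocyte (66), endothelial (95) and Schwann cell (6) lists were highest in EV replicate 2. The fibroblast, liver, erythroid and neuronal lists were not.

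**Figure D4:**
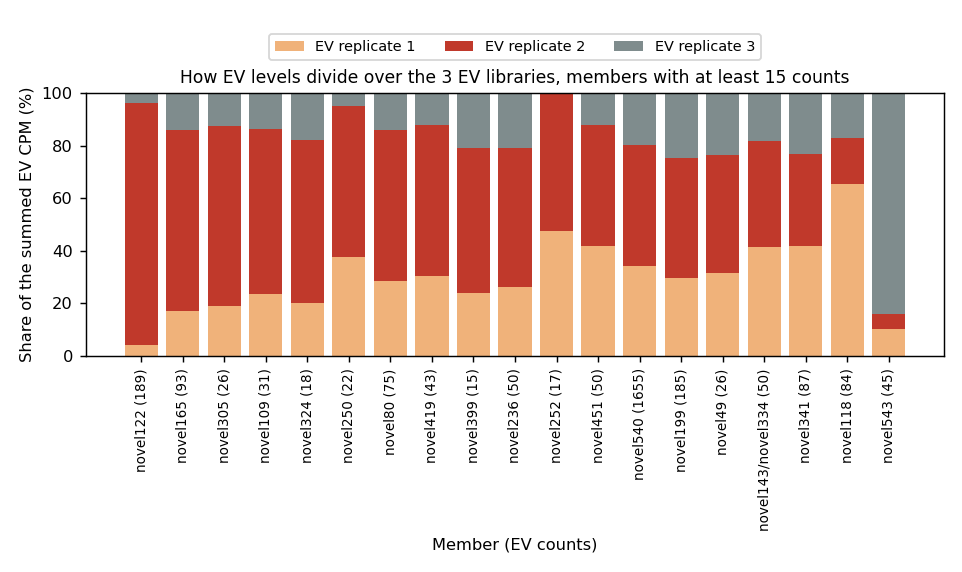
Share of each member's summed EV CPM (percent) in EV replicates 1, 2 and 3, for the 19 members with at least 15 EV counts, ordered by the share of replicate 2, with EV counts in parentheses. novel122_mature lies almost wholly in replicate 2 and novel543_mature mostly in replicate 3, and 15 of 19 are highest in replicate 2.

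The spread between EV libraries was wider for members than for known miRNAs of like counts. The median chi-square per degree of freedom was 2.19 over the 62 members and 0.942 over the 256 known miRNAs, where counting noise alone has a median of 0.693. The 13 other predicted miRNAs with at least 5 EV counts lay between these, at 1.53. For 5 to 9 EV counts it was 1.45 against 0.631, for 10 to 49 counts 2.84 against 0.817, and from 50 counts up 8.92 against 1.38. The median coefficient of variation of EV CPM was 0.535 for the 10 members with at least 50 counts and 0.159 for the 121 known miRNAs. These are medians over miRNAs that share the same 3 libraries, given with no test. Members near the limit of 5 EV counts could reach it through a high count in any EV library. The known miRNAs were not chosen on fold, and the part of the rule in the spread was not tested.

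**Figure D5:**
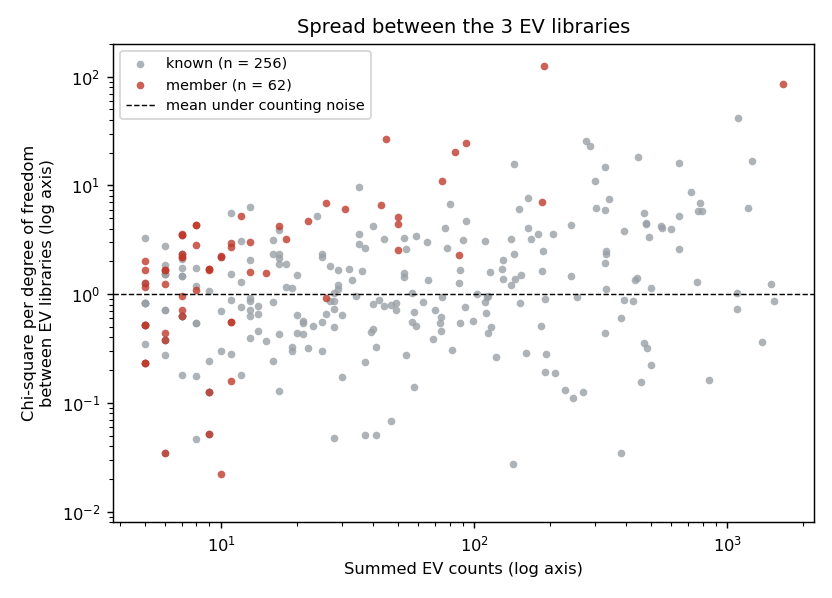
Chi-square per degree of freedom of the counts in the 3 EV libraries (log axis) against summed EV counts (log axis), with members in red and known miRNAs with EV counts in the same range in grey, and a dashed line at 1, the mean under counting noise. All 10 members with at least 50 EV counts lie above the line, with novel122_mature and novel540_mature the highest.

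The direction of the departures was not the same for all. The members with the largest share in 1 library were novel122_mature (92.4% in EV replicate 2), novel543_mature (84.1% in replicate 3) and novel165_mature (68.9% in replicate 2), among those with at least 15 EV counts. The least uneven of these were novel341_mature (coefficient of variation 0.287), novel49_mature (0.322) and novel199_mature (0.332). novel118_mature, with 65.4% in EV replicate 1, departed towards the remaining library.

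Members were also chosen in some libraries and read in libraries that the choice of that round did not use. The rule was applied to 2 EV and 2 Intracellular libraries, and the members so found were read in the EV and Intracellular library left out, for all 9 pairs. With EV replicate 1 left out together with Intracellular replicate 1, 2 or 3, 45, 45 and 44 of the 50 members found were at least 10 times higher in EV again. Among all miRNAs with at least 5 counts in the other EV libraries it was 21.9%, 18.5% and 18.5%. With EV replicate 2 left out it was 29 of 30 members each time, against 17.4%, 13.9% and 13.9% of all. With EV replicate 3 left out it was 40, 39 and 40 of 51, against 17.7%, 14.6% and 15.8%. Over the 9 pairs, which share libraries, 86.5% held. Those that did not were mostly at 0 in the EV library left out, which happened for 5, 1 and 11 members with EV replicates 1, 2 and 3. Since 1 EV count is 9.47 CPM or more, being counted there at all was nearly enough to pass. Over the 9 pairs, 87.0% had at least 1 count in the EV library left out. The miRNAs set beside the members were not chosen on fold, so nothing is read from the difference. The number found was 30 without EV replicate 2 and 50 and 51 without replicates 1 and 3, all of them among the 62.

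Counts were also fitted across the whole table with the quasi-likelihood test of edgeR, at a Benjamini-Hochberg adjusted p under 0.05. Of 328 miRNAs tested, 84 (25.6%) were called higher and 56 lower in EV, or 107 and 3 with total-count scaling. Of the 62 members, 22 passed the filter on low counts, and 21 of these were called higher. The member tested and not called was novel122_mature (adjusted p = 0.111, edgeR), whose counts lay mostly in EV replicate 2. The other 40 members were too low to be tested. Members could pass the filter through their EV counts alone and were chosen on this contrast, so nothing is read from these calls.

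Second arms were rarely seen. Of the 60 members that are mature arms, 3 had any count for the star arm of the same prediction in the 6 libraries, and 84 of 367 mature arms among other predicted miRNAs (22.9%) did. With at least 50 counts over the 6 libraries it was 0 of 11 members and 12 of 22 others, and with fewer counts 3 of 49 and 72 of 345. In the EV libraries alone, a star arm was counted for 2 of the 60 members and 15 of the 367 others. Most of the 84 were thus counted only in the deeper Intracellular libraries, where most members had 0 counts. The others with at least 50 counts were better counted, with a median of 179 counts against 88, which bears on how often a rarer arm is seen. Below 50 counts the members were the better counted, with a median of 9 counts against 3. The shares are given as counts with no test, and the part of depth in them was not tested.

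The pairs themselves are thin. novel49_mature, with 26 EV counts, had a star arm with 1 count, in EV replicate 1. novel403_mature, with 2, 6 and 1 EV counts, had a star arm with 1 count, in EV replicate 3. For novel431_mature, with 2, 8 and 3 EV counts, the star arm had 1 count, in Intracellular replicate 3, where the mature arm had 0. Of the 2 members that are star arms, novel59_star had 0, 7 and 1 EV counts and its mature arm 0, 2 and 0, so that the arm named star was the better counted, and novel4_star, with 2, 5 and 0, has no mature row in the table. novel540_mature, the most abundant member, has no star row.

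Of the 43 members with fewer than 15 EV counts, 34 had 0 Intracellular counts, 27 were counted in all 3 EV libraries and 28 were highest in EV replicate 2. Their pooled EV levels ran from 17.9 to 46.6 CPM. Joined names, for reads shared by several predictions, made up 8 of the 62 members and 30 of the 457 other predicted miRNAs. Of those that join 3 predictions, novel145_mature>novel150_mature>novel435_mature had 4, 4 and 3 EV counts and none in the cells, novel235_mature>novel245_mature>novel269_mature had 2, 8 and 1, and novel272_mature>novel376_mature>novel521_mature had 2, 2 and 1. For joined rows the files do not say from which prediction the reads came.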

How the data were processed

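Small RNA was read in 3 EV and 3 Intracellular libraries, grouped by the labels. The deposited counts are whole numbers for each mature or star arm. The deposited TPM, made by the authors, equal counts per 1000000 with no length term (largest difference 4.78e-05). Adapters were trimmed with cutadapt and the build was Rnor_6.0, per the submitters' processing notes. Per the labels' protocols, adapters were ligated and the cDNA was amplified by PCR, with no molecular identifiers named, so intervals and floors cover counting error only. No source used here names the aligner, the counter or the program that predicted miRNAs.

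Members and lists were chosen with earlier results of these data known. CPM, folds with exact binomial 95% intervals and the floor of 3 pooled counts were computed with Python 3.11.15 (scipy 1.17.1). Counts were fitted with edgeR 4.0.16 (TMM, filterByExpr with minimum count 10 and total 15, robust, no replicate block, 2-sided), a procedure tested on simulated data. DESeq2 1.42.0, other scalings, filters and limits, a replicate block and each library left out were alternatives. Members named with values were the 20 with the most EV counts, those with an other arm in the table, the 3 on each side of the fold limit, and the 3 most uneven and most even with at least 15 EV counts. The members with a sequence, novel4_star and the 3 members that join 3 names were added after their values were seen.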

Additional observations from a re-analysis of the deposited data

Results flagged for a closer look

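Below the count limit of the members, 30 of the 519 predicted miRNAs had 3 or 4 EV counts and 0 Intracellular counts. Of the 552 known miRNAs, 2 did. They are singled out as counts in EV from miRNAs that the report does not otherwise describe. They were picked for their 0 Intracellular counts, so that level is not a finding.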

How the results depend on the processing

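The number of members was 62 with a fold limit of 5 and 60 with a limit of 20, and 62 with mean CPM, totals of known miRNAs, TMM library sizes or the TPM table. It was 99 with a limit of 3 EV counts and 30 with 10, and 30 to 62 with each library left out, the lowest without EV replicate 2 (the cause was not tested). Members called higher by edgeR, 21, numbered 61 with no filter, 61 with at least 5 summed counts and 61 with DESeq2, which test more miRNAs, and 10 to 20 with each library left out. The 10 came without any 1 Intracellular library, where 10 members were tested. All miRNAs called higher, 84 of 328 tested, were 197 of 1071 with no filter, 121 of 675 with at least 5 summed counts and 153 of 696 with DESeq2. They were 61 of 376, 61 of 369 and 69 of 380 without EV replicates 1, 2 and 3. Without Intracellular replicates 1, 2 and 3 they were 56 of 196, 50 of 195 and 50 of 195. With the replicate block 22 of 22 members tested were called, beside 87 of all 328 miRNAs tested. Members were chosen on this contrast, so nothing is read from these calls. Equal replicate numbers correlated at 0.035, 0.092 and -0.020 in their deviations, and EV replicate 3 did not correlate best with its own number, so the numbers were not taken to pair samples. The members' mean share of EV counts, 1.08%, was 0.501% without novel540_mature. The median chi-square per degree of freedom, 2.19, was 6.08 for members with at least 15 EV counts. Of 38 alternatives, 27 stayed within the limits set for a change. At an EV total of 279118 counts, 32 of the 62 members had under 10 counts.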

Other observations

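The 13 known miRNAs that pass the same limits on EV counts and fold all had at least 5 Intracellular counts, while 43 of the 62 predicted miRNAs had 0 and 9 had at least 10. Intracellular counts are part of the rule, and a count of 0 passes it, so nothing is read from this difference. miR-3473 (150 EV and 115 Intracellular counts) lay close to novel199_mature (185 and 82) in both. miR-122-5p (932, 1178 and 1267 EV counts) and miR-423-5p (494, 639 and 641) led them. Of the 13, 6 were highest in CPM in EV replicate 2, 4 in replicate 1 and 3 in replicate 3.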
